A study of Mus musculus with 4 samples.

Results

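The tumour necrosis factor (TNF) ligand and receptor superfamilies were examined by RNA sequencing of MC38, a colon carcinoma line of the mouse. There were 2 libraries with the label WT, for wild type, and 2 with the label KO, for knockout of Arid5a, which encodes an RNA-binding protein known to lengthen the life of certain mRNAs. The members were all listed gene symbols formed by Tnfrsf or Tnfsf followed by a digit, together with Tnf, Lta, Ltb, Cd40, Cd27 and Ltbr. Tnfrsf9 and Tnfrsf10b were left out. This gave 35 members, 14 ligands and 21 receptors, among 24346 gene symbols. In the labels the groups differ by Arid5a genotype alone, with no treatment or time point. The labels do not say whether the knockout cells were 1 clone or which part of Arid5a was deleted. Nor do they say whether the 2 libraries of a group came from separate cultures. The p-values below therefore measure only the spread between these libraries, which may be technical.

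Ligands of the TNF superfamily are trimeric proteins, mostly held in the cell membrane until they are shed, and they act by bringing receptor chains together. Receptors with a cytoplasmic death domain bind adaptors such as Tradd and Fadd, which can lead to caspase activation, whereas most of the others bind TRAF proteins and activate NF-kB and MAP kinases. Some receptors lack a signalling domain or are secreted and act as decoys. In tumours, the costimulatory ligands and receptors of these families act mainly between T cells and antigen-presenting cells, and receptors for TNF, lymphotoxin and TWEAK are commonly present on the tumour cells themselves.

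Values are FPKM, the number of fragments divided by transcript length and by library depth, so levels of different genes can be set beside each other. An estimated 10300000 to 15300000 fragments lay behind each library. Arid5a, the targeted gene, was listed at 0.225 and 0.124 FPKM in the WT-labelled libraries and at 2.16 and 1.77 FPKM in the KO-labelled pair. This goes against the labels, so every direction below refers to the group labels as deposited and not to a loss of Arid5a. Exchanged labels and a deletion that leaves the transcript cannot be told apart here, and an exchange would turn every direction. Of 12 epithelial and intestinal markers, all were below 1 FPKM in every library, and Epcam, Cdx2 and Cldn7 were listed at 0, while 7 of 10 mesenchymal markers passed the filter, with Vim highest at 1163 to 1367 FPKM, and the other 3 (Acta2, Thy1 and Col1a2) were below 1 FPKM in every library. Of 22 leukocyte markers, 11 were listed at 0 in all 4 libraries, among them Cd3e, Itgam and Adgre1. The summed level of that list was nevertheless higher in the WT-labelled libraries, at 10.4 and 13.4 FPKM against 3.42 and 2.72 FPKM, mostly through the macrophage protein Cd68 and the neutrophil protein S100a8. Several members named below are best known from leukocytes, and the part of these markers in their values was not tested.

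Only part of the superfamilies was transcribed in these cells. Of the 35 members, 12 reached a mean of 1 FPKM over the 4 libraries and were tested, 14 were above 0 in at least 1 library but below that mean, and 9 were listed at 0 in every library. Among receptors 9 of 21 were tested, and among ligands 3 of 14. The summed receptor level was 399 and 399 FPKM in the WT-labelled libraries and 310 and 321 FPKM in the KO-labelled pair. Tnfrsf12a alone made up 68.6% to 70.4% of that sum in each library. Without Tnfrsf12a the receptor sum was 121 and 118 FPKM against 91.8 and 101 FPKM. The ligand sum differed little, at 30.1 and 28.1 FPKM against 29.5 and 29.2 FPKM.

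**Figure D1:**
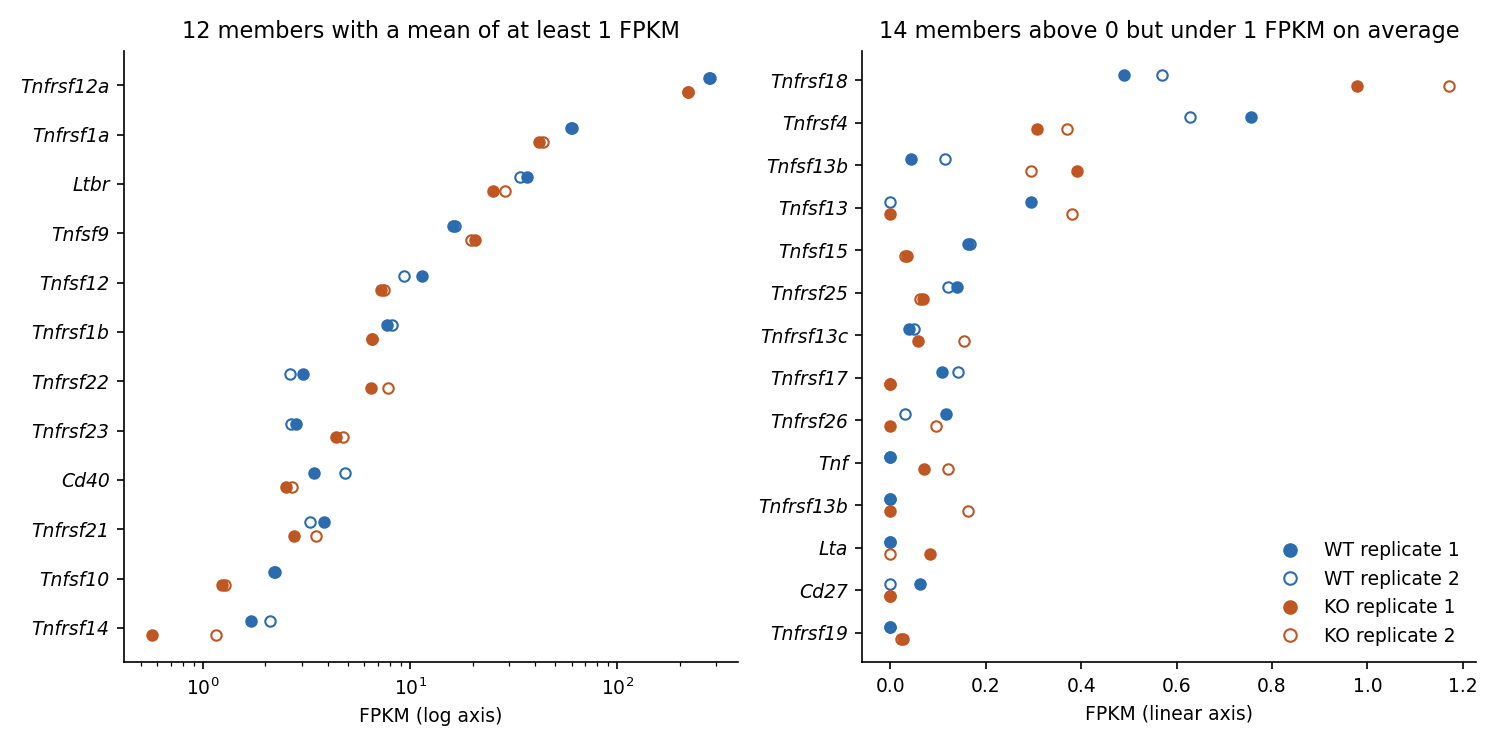
FPKM of each superfamily member above 0, with 1 point per library (blue, WT; orange, KO; filled, replicate 1; open, replicate 2). The left panel has a log axis and shows the 12 tested members, of which only Tnfrsf21 has overlapping groups; the right panel has a linear axis and shows the 14 members below a mean of 1 FPKM.

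The comparison asks which members differ between the 2 groups. In the KO-labelled libraries, 8 receptor and ligand transcripts were lower, among them those of both TNF receptors, the lymphotoxin beta receptor and the TWEAK receptor with its ligand, and 3 were higher. Of the 8 lower ones, Cd40, Ltbr, Tnfrsf14, Tnfrsf1b and Tnfsf12 each lost their call in at least 1 fit that left out 1 library. Tnfrsf1b lost it in every such fit. Of the 12 tested members, 11 passed an adjusted p of 0.05 (limma, Benjamini-Hochberg), and are here termed called. Differences between the groups were widespread in these data, since 47.6% of all 10827 genes tested were called, 24.4% as higher and 23.3% as lower. The median log2 change of the 12 members was -0.36, against 0.01 for all genes tested, and the median of the absolute change was 0.46 against 0.18. All changes refer to log2(FPKM + 1), so those of genes near 1 FPKM are understated. Groups did not overlap for 11 of the 12 members, as was the case for 77.5% of all genes tested. Tnfrsf14 passed the filter only through the WT-labelled libraries, and the counts and medians describe the 12 members that passed, not all 35. With 2 libraries against 2, an exact permutation test of 1 gene cannot go below a two-sided p of 0.333, so no such test is given for single members.

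**Figure D2:**
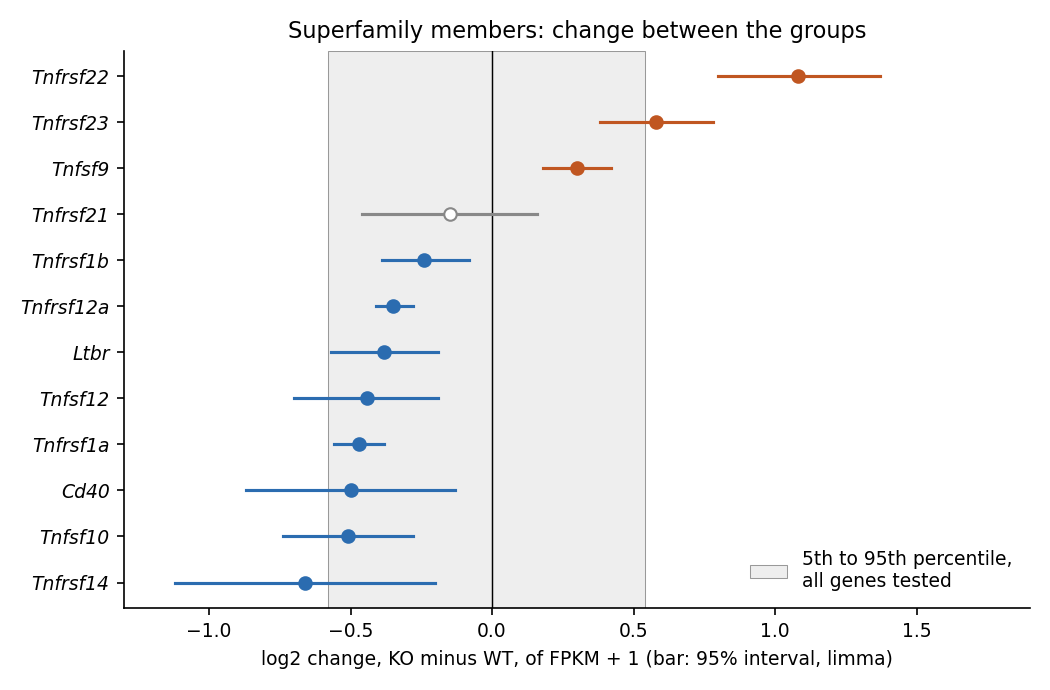
Log2 change (KO minus WT, of FPKM + 1) of the 12 tested members with 95% intervals from limma; orange and blue points are called as higher and lower, and the open grey point is not called. Tnfrsf22 and Tnfrsf23 lie above and Tnfrsf14 lies below the grey band, which spans the 5th to the 95th percentile (-0.58 to 0.54) of all genes tested.

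Tnfrsf1a (chromosome 6, 125349362 to 125362484, plus strand) encodes TNF receptor 1, the death domain receptor through which soluble TNF acts on most cells. Positions here and below are of whole genes, exons and introns included, in GENCODE M21 on GRCm38. Its level was 60.2 and 59.4 FPKM in the WT-labelled libraries and 42 and 43.6 FPKM in the KO-labelled pair. Both WT libraries lay above both KO libraries, and the spread within each group was small. The fall was 1.4-fold by mean FPKM, a log2 change of -0.47 ± 0.035 (SE; adjusted p = 0.000631 with limma). Tnfrsf1b (chromosome 4, 145213463 to 145246870, minus strand), TNF receptor 2, which binds membrane TNF and TRAF2 and is best known from T cells and myeloid cells, was present at a lower level. It was 7.7 and 8.12 FPKM against 6.57 and 6.57 FPKM, again without overlap. Its log2 change of -0.24 ± 0.061 (SE; adjusted p = 0.0272) stayed between -0.27 and -0.20 whichever library was left out, but was then no longer called (adjusted p of 0.0774 to 0.138).

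Ltbr (chromosome 6, 125306571 to 125313885, minus strand), the lymphotoxin beta receptor, activates the non-canonical NF-kB pathway when it binds lymphotoxin or the ligand LIGHT. Its values were 36.6 and 33.8 FPKM in the WT-labelled libraries and 25.1 and 28.7 FPKM in the KO-labelled pair. The groups were separate, although KO replicate 2 lay nearer to the WT libraries than KO replicate 1. The log2 change was -0.38 ± 0.076 (SE; adjusted p = 0.0124), and the call ended when WT replicate 1 was left out (-0.32, adjusted p = 0.0683). Tnfrsf14 (chromosome 4, 154921933 to 154928563, minus strand), also called HVEM, binds LIGHT and the inhibitory receptor BTLA. Its level was close to the filter, at 1.71 and 2.11 FPKM against 0.567 and 1.15 FPKM. Depending on the transcript, the WT-labelled values rest on about 5 to 25 and 5 to 24 fragments, and the KO-labelled values on 1 to 6 and 2 to 13. The log2 change of -0.66 ± 0.18 (SE; adjusted p = 0.0327) was the furthest below 0 among the members tested, with a 95% interval from -1.12 to -0.20. The call ended when WT replicate 1 (adjusted p = 0.0703), WT replicate 2 (0.135) or KO replicate 1 (0.0717) was left out.

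Ligands for these receptors were scarce. Tnf itself was listed at 0 in both WT-labelled libraries and at 0.0695 and 0.121 FPKM in the KO-labelled pair, which corresponds to about 1 and 2 fragments. Lta, lymphotoxin alpha, was above 0 in KO replicate 1 alone, at 0.0827 FPKM or about 1 fragment. Ltb, the membrane partner of Lta, and Tnfsf14, which encodes LIGHT, were listed at 0 in all 4 libraries. No level of these 4 ligands was distinguishable from a few fragments.

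Tnfrsf12a (chromosome 17, 23675445 to 23677468, minus strand) encodes Fn14, a small receptor without a death domain that growth factors induce in many cell types and that binds TWEAK. It was the most abundant member and lay at the 96.7th percentile of all genes tested by mean level. The 2 WT-labelled libraries gave 278 and 280 FPKM, and the 2 KO-labelled ones gave 218 and 220 FPKM. Replicates differed far less than the groups, and the log2 change was -0.35 ± 0.025 (SE; adjusted p = 0.000587 with limma). Its ligand TWEAK, encoded by Tnfsf12 (chromosome 11, 69686250 to 69695849, minus strand), was 11.4 and 9.28 FPKM against 7.19 and 7.44 FPKM. WT replicate 1 was the highest of the 4, and the groups did not overlap. The log2 change of Tnfsf12 was -0.44 ± 0.10 (SE; adjusted p = 0.0185), and its call was lost when WT replicate 1 (adjusted p = 0.0581), KO replicate 1 (0.0727) or KO replicate 2 (0.0587) was left out. Tnfsf12 lies 0.466 kb from Tnfsf13 on chromosome 11, and in the GENCODE annotation a read-through gene spans both and an antisense gene overlaps both. The library kit marks strand, but whether strand was used in the quantification and how such overlaps were handled is not given in the sources used here, so the values of Tnfsf12 and Tnfsf13 are uncertain to that extent. TWEAK and Fn14 were the only ligand and receptor partners among the members of which both reached the filter, leaving aside TRAIL and its decoy receptors described below.

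Promoter sequences are shown for 3 receptors that were lower and 1 that was higher, so that the sequence just upstream of the start can be read beside the values of genes that moved in either direction. Bases in annotated exons are left out, which removed the 19 bases nearest the start of Tnfrsf12a. They were taken from RefSeq on GRCm38.p6, which held 8 of the 12 tested members, and run 5′ to 3′ on the strand of the gene, up to the annotated start. Capitals mark matches, on either strand, to the GC box GGGCGG, the TATA box TATAAA, the STAT-type GAS core TTCNNNGAA, and the interferon-stimulated response element (ISRE) core, GAAA followed by any 2 bases and GAAA.
Tnfrsf12a (chr17:23677469-23677699, minus strand): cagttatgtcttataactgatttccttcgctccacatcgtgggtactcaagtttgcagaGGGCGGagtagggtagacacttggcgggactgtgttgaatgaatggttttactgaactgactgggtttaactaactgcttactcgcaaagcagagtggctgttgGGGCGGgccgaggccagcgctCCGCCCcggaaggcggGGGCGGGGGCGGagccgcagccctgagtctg
Ltbr (chr6:125313886-125314135, minus strand): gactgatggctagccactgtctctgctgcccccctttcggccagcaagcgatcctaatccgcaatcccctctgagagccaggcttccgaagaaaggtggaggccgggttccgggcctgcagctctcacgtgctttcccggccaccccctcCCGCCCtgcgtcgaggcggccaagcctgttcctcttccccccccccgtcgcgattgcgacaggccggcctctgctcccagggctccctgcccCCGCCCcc
Tnfrsf1b (chr4:145246871-145247120, minus strand): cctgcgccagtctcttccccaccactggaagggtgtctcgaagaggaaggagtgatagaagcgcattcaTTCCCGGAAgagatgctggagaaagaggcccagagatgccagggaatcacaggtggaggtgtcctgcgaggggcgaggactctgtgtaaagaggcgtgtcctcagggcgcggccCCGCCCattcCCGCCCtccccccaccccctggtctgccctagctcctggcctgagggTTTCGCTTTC
Tnfrsf23 (chr7:143685876-143686125, minus strand): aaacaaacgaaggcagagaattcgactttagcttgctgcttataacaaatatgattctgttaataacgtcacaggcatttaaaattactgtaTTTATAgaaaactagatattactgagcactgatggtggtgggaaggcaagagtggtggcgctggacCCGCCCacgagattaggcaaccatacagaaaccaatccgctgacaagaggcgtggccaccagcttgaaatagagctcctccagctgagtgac
The Tnfrsf12a window shows 5 GC boxes and the Ltbr window 2. In the window of Tnfrsf1b there are 2 GC boxes, 1 GAS core and, in its last 10 bases, 1 ISRE core, and in that of Tnfrsf23 1 TATA box and 1 GC box. These matches do not overlap, although a pair of GC boxes in the Tnfrsf12a window adjoin.

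Over the 8 member windows of 250 bases, 5 held a GC box, against 32.7% of 32807 RefSeq promoter windows of the same length. The ISRE core was in the windows of Tnfrsf1b and Tnfrsf14 (2.97% of all windows), and the GAS core in those of Tnfrsf1a and Tnfrsf1b (7.02%). The matches of Tnfrsf1a and Tnfrsf14 lie inside the GENCODE span of the gene, at or past the first base of an annotated exon, and so are not upstream of all its annotated starts. None of the 8 held the kB consensus (3.9% of all windows) or the AP-1 motif TGANTCA (6.75%). A match is a string of letters and was not examined for binding.

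Cd40 (chromosome 2, 165055627 to 165072948, plus strand), a receptor of antigen-presenting cells that also occurs on carcinoma cells, was 3.44 and 4.85 FPKM in the WT-labelled libraries and 2.5 and 2.69 FPKM in the KO-labelled pair. WT replicate 2 was the highest library, and the groups did not overlap. Its log2 change was -0.50 ± 0.15 (SE; adjusted p = 0.0381 with limma), and the call was lost without WT replicate 2 (-0.30, adjusted p = 0.103), KO replicate 1 (adjusted p = 0.124) or KO replicate 2 (adjusted p = 0.0924). Cd40 lies on chromosome 2, where the median log2 change of the 832 genes tested was 0.23, so its change was opposite to that of the chromosome. The gene of its ligand, Cd40lg, was listed at 0 in all 4 libraries.

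Tnfsf9 (chromosome 17, 57105325 to 57107757, plus strand) encodes the 4-1BB ligand, a costimulatory ligand of T cells, and was the most abundant ligand transcript. Its values were 16 and 16.4 FPKM in the WT-labelled libraries and 20.5 and 19.7 FPKM in the KO-labelled pair. Each group was tight and the KO libraries lay above the WT libraries, a 1.24-fold rise with a log2 change of 0.30 ± 0.046 (SE; adjusted p = 0.00544 with limma). Of the 3 ligands tested it was the only one called as higher, and its call remained in each of the 4 fits that left out 1 library.

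Tnfsf10 (chromosome 3, 27317028 to 27342427, plus strand) encodes TRAIL, which triggers apoptosis through a death receptor and, in the mouse, also binds the receptors encoded by Tnfrsf22 and Tnfrsf23, which lack a death domain. TRAIL transcripts were 2.23 and 2.2 FPKM in the WT-labelled libraries against 1.23 and 1.28 FPKM in the KO-labelled pair. The replicates of each group nearly coincided, and the log2 change was -0.51 ± 0.091 (SE; adjusted p = 0.00849 with limma), a 1.77-fold fall by mean FPKM. The decoy-type receptors went the other way. Tnfrsf22 was 3.05 and 2.63 FPKM against 6.49 and 7.83 FPKM, a 2.52-fold rise with a log2 change of 1.08 ± 0.11 (SE; adjusted p = 0.00157). Tnfrsf23 was 2.81 and 2.65 FPKM against 4.4 and 4.74 FPKM, a 1.67-fold rise with a log2 change of 0.58 ± 0.080 (SE; adjusted p = 0.00382). In both receptors all KO values were above all WT values, and the calls of Tnfsf10, Tnfrsf22 and Tnfrsf23 remained whichever library was left out.

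Tnfrsf22 and Tnfrsf23 are close paralogs. Of the distinct 50-base words in the coding transcripts of Tnfrsf23, 28.9% also occur in those of Tnfrsf22, and 10.3% of the words of Tnfrsf22 occur in Tnfrsf23. Reads from the shared stretches could be assigned to either gene, so the values of the 2 genes are uncertain where they share sequence, and their rises are not fully separate measurements. The neighbouring orphan receptor Tnfrsf26 shares no such word with either. It was 0.117 and 0.0306 FPKM in the WT-labelled libraries and 0 and 0.0948 FPKM in the KO-labelled pair, about 5, 1, 0 and 3 fragments, and the groups overlapped.

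The 3 receptor genes lie in a row on the minus strand of chromosome 7 (GRCm38), Tnfrsf26 from 143607659 to 143628722, Tnfrsf22 from 143634806 to 143649661 and Tnfrsf23 from 143665809 to 143685872. Among genes starting within 500 kb of them, 6 that are no members were tested, of which 5 were called as higher and 0 as lower, with a median log2 change of 0.71. Phlda2, an imprinted growth restraint gene of the placenta, was listed at 0 in both WT-labelled libraries and averaged 4.5 FPKM in the KO-labelled pair. The cysteinyl-tRNA synthetase gene Cars had a log2 change of 1.59 ± 0.039 (SE), the sterol reductase gene Dhcr7 one of 0.87 ± 0.045, the lipid transfer gene Osbpl5 one of 0.55 ± 0.091 and the histone chaperone gene Nap1l4 one of 0.53 ± 0.032. Nadsyn1 was not called (0.15 ± 0.15; adjusted p = 0.447). Phlda2 passed the filter only through the KO-labelled libraries, and without it 4 of 5 were higher, with a median of 0.55. This window of 500 kb was chosen after values of these genes were seen. Over all of chromosome 7 the median log2 change of the 759 genes tested was 0.03. Of all 10827 genes tested, 24.4% were called as higher and 23.3% as lower.

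**Figure D3:**
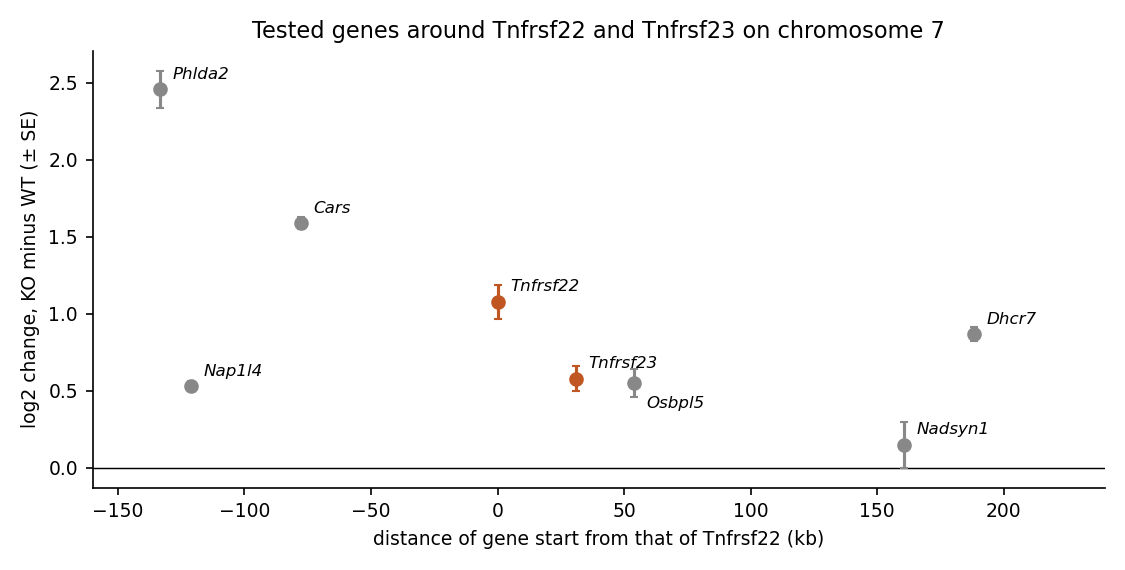
Log2 change (KO minus WT, with SE) of the genes tested around Tnfrsf22, against the distance of each gene's start from that of Tnfrsf22 in kb. Tnfrsf22 and Tnfrsf23 (orange) lie among 6 other genes (grey), of which all but Nadsyn1 were called as higher; the height of Phlda2, listed at 0 in both WT-labelled libraries, depends on the pseudocount of 1.

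Tnfrsf21 (chromosome 17, 43016555 to 43089189, plus strand), or DR6, is a death domain receptor known from neurons and lymphocytes. It was the 1 tested member that was not called, at 3.84 and 3.3 FPKM in the WT-labelled libraries and 2.76 and 3.51 FPKM in the KO-labelled pair. KO replicate 2 lay between the WT libraries. The log2 change was -0.15 ± 0.12 (SE; adjusted p = 0.351 with limma), with a 95% interval from -0.46 to 0.16, which includes falls as large as those of Tnfrsf12a and Ltbr.

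Of the 14 members above 0 but under the filter, the costimulatory receptors came closest to it. Tnfrsf18, or GITR, a receptor of regulatory and activated T cells, was 0.489 and 0.569 FPKM in the WT-labelled libraries and 0.979 and 1.17 FPKM in the KO-labelled pair. Both KO values exceeded both WT values, and they correspond to about 4 to 7 and 4 to 7 fragments against 6 to 10 and 8 to 13. Tnfrsf4, or OX40, is a receptor of activated T cells whose mRNA has been reported as a target of Arid5a in CD4+ T cells. It was 0.756 and 0.627 FPKM against 0.308 and 0.37 FPKM, about 10 and 6 fragments against 3 and 3. The direction of Tnfrsf4 was thus opposite to that of its neighbour Tnfrsf18, which starts 9.55 kb beyond its end on chromosome 4, and opposite to that of Arid5a. Fitted without a filter, the log2 change was 0.44 for Tnfrsf18 (limma, adjusted p = 0.0198) and -0.34 for Tnfrsf4 (adjusted p = 0.0252). That fit does not model the counting of so few fragments, so these p-values do not establish a difference. It called 31% of the 16191 genes it covered.

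Ligands of B cell survival were low. Tnfsf13b, which encodes BAFF, was 0.0437 and 0.114 FPKM in the WT-labelled libraries and 0.391 and 0.294 FPKM in the KO-labelled pair, about 1 to 3 and 1 to 6 fragments against 4 to 18 and 3 to 15. Both KO values were higher, with a log2 change of 0.32 in the fit without a filter (limma, adjusted p = 0.0245). That p-value has the same limit of few fragments. Tnfsf13, encoding APRIL, was 0.295 and 0 FPKM against 0 and 0.381 FPKM, so each group held 1 library at 0. The receptors of these ligands, Tnfrsf13b, Tnfrsf13c and Tnfrsf17, which mark B cells and plasma cells, stayed at or below 0.162 FPKM in every library.

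Tnfsf15, the ligand TL1A, and its receptor Tnfrsf25, the death domain receptor DR3, were both nearer to 0 in the KO-labelled libraries. Tnfsf15 was 0.162 and 0.166 FPKM against 0.0346 and 0.0311 FPKM, or about 8 and 6 fragments against 1 and 1. Tnfrsf25 was 0.139 and 0.121 FPKM against 0.0692 and 0.0624 FPKM, about 3 and 2 fragments against 1 and 1. In the fit without a filter Tnfsf15 had a log2 change of -0.17 (limma, adjusted p = 0.0279) and Tnfrsf25 one of -0.08 (adjusted p = 0.161). Such low fragment counts are not modelled in that fit. Tnfrsf17 was likewise called in that fit (adjusted p = 0.0323), on about 1 fragment in each WT-labelled library and 0 in the KO-labelled pair, a depth at which a difference is not detectable. The remaining 2 members, Cd27, a receptor of T and B cells, and the orphan receptor Tnfrsf19, did not exceed 0.0616 FPKM in any library.

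The 9 silent members, listed at 0 in all 4 libraries, comprised 6 ligands and 3 receptors. The ligands were Ltb, Tnfsf4 (OX40 ligand), Tnfsf8 (CD30 ligand), Tnfsf11 (RANKL), Tnfsf14 (LIGHT) and Tnfsf18 (GITR ligand). The receptors were Tnfrsf8 (CD30), Tnfrsf11a (RANK) and Tnfrsf11b (osteoprotegerin, a secreted decoy that binds RANKL and TRAIL). All 3 genes of the RANKL axis were therefore without a listed fragment, and so were the ligands of the 2 low receptors Tnfrsf4 and Tnfrsf18.

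Some neighbouring members had like levels and others unlike ones. On chromosome 6, Tnfrsf1a and Ltbr are 35.5 kb apart, and both were expressed and lower in the KO-labelled libraries, while Cd27, 69.6 kb from Ltbr, was at or near 0. Within 500 kb of Ltbr, 20 genes that are no members were tested, of which 3 were higher and 6 lower, with a median log2 change of -0.07. On chromosome 4, Tnfrsf1b was expressed and Tnfrsf8, 20.3 kb away, was silent. On chromosome 17 the genes Ltb, Tnf and Lta lie within a few kb of each other in the major histocompatibility complex and were all at or near 0. Around Tnfsf12 on chromosome 11, 35 genes that are no members were tested within 500 kb. Of these, 4 were higher and 16 lower, with a median log2 change of -0.18 against -0.10 for the chromosome. The shares over all genes tested were 24.4% higher and 23.3% lower.

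Of the superfamily genes with other symbols, the 3 that were tested did not differ detectably, although the groups of Eda2r did not overlap. Of 9 listed, Fasl, Cd40lg, Cd70 and Edar were at 0 in every library, Fas, the classical death receptor, was 0.967 and 0.842 FPKM in the WT-labelled libraries and 1.09 and 0.342 FPKM in the KO-labelled pair, and Ngfr reached 0.03 FPKM in 1 library. The 3 above the filter were Eda, the ectodysplasin ligand, with a log2 change of 0.02 ± 0.099 (SE), its receptor Eda2r, with -0.14 ± 0.10, and the TNF receptor relative Relt, with -0.10 ± 0.11. None was called with limma (adjusted p of 0.318 to 0.883), and none had an unadjusted p under 0.05, but the 95% intervals reached -0.40 for Eda2r and -0.38 for Relt.

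Of 43 genes that act directly below the receptors or release them and their ligands, 41 were tested, and 6 were called as higher and 5 as lower in the KO-labelled libraries. This was 26.8% of them, against 47.6% of all genes tested. Their median log2 change was 0.02, and the median of the absolute change was 0.08. Groups did not overlap for 26 of the 41, against 77.5% of all genes tested. The count of calls varied with the library left out, as did that over all genes tested.

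Death effectors parted. Ripk3, the kinase of necroptosis, was 0.98 and 1.07 FPKM in the WT-labelled libraries and 2.34 and 3.34 FPKM in the KO-labelled pair, a log2 change of 0.91 ± 0.15 (SE; adjusted p = 0.00641 with limma). Its substrate Mlkl, the membrane-permeabilising effector, was 110 and 106 FPKM against 88 and 86.8 FPKM, with a log2 change of -0.30 ± 0.031 (SE; adjusted p = 0.00157). Fadd, the adaptor that recruits caspase-8, rose by 0.46 ± 0.096 (SE; adjusted p = 0.0138), a call lost without WT replicate 1 (adjusted p = 0.0713) or KO replicate 2 (adjusted p = 0.0514). Nsmaf, which binds TNF receptor 1 and couples it to sphingomyelin breakdown, rose by 0.29, a call lost without WT replicate 2 (adjusted p = 0.0591). Tradd, Ripk1, Casp8 and the caspase-8 regulator Cflar were not called, with log2 changes of 0.02, -0.15, 0.05 and -0.06.

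Of 8 genes of TRAF proteins and their partner Tank, only Tank was called, at 0.29 ± 0.065 (SE; adjusted p = 0.0172), and not without WT replicate 1 (adjusted p = 0.079) or KO replicate 2 (adjusted p = 0.0755). Traf1, an NF-kB-induced TRAF, was 0.18 (adjusted p = 0.0528), and Traf2, the adaptor of TNF receptor 2, was 0.20 (adjusted p = 0.116). Of 14 IAP ligases, components of the linear ubiquitin complex LUBAC and kinases, 2 were lower. Map3k14, the NIK kinase of the non-canonical pathway used by Ltbr, Cd40 and Fn14, was 4.89 and 5.05 FPKM against 3.6 and 3.71 FPKM, a log2 change of -0.36 ± 0.070 (SE; adjusted p = 0.0115). It was -0.38 without WT replicate 1 (adjusted p = 0.0513) and -0.34 without WT replicate 2 (adjusted p = 0.0654), which ended the call. Sharpin, a LUBAC subunit, changed by -0.33 ± 0.063 (SE; adjusted p = 0.0108), and by -0.27 without WT replicate 1, which ended the call (adjusted p = 0.0639). The deubiquitinase Otulin, which removes linear chains, changed by -0.41 ± 0.060 (SE; adjusted p = 0.00475). Tnfaip3, the NF-kB-induced brake A20, was 4.08 and 3.84 FPKM against 2.54 and 3.26 FPKM and just missed the threshold (-0.35, adjusted p = 0.0511).

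Of 2 sheddases and 2 iRhom genes tested, 1 of each was higher and 1 iRhom gene was lower. Adam17, the sheddase that releases TNF and cleaves both TNF receptors, was 25.8 and 27.4 FPKM in the WT-labelled libraries and 35.2 and 36.3 FPKM in the KO-labelled pair. The log2 change was 0.42 ± 0.046 (SE; adjusted p = 0.00189 with limma), with no overlap. The iRhom genes Rhbdf1 and Rhbdf2, whose products carry Adam17 to the cell surface, changed in opposite directions, by -0.32 ± 0.051 (SE; adjusted p = 0.00618) and 0.32 ± 0.095 (SE; adjusted p = 0.0399). The call of Rhbdf2 was lost when WT replicate 1 (adjusted p = 0.153), KO replicate 1 (0.095) or KO replicate 2 (0.126) was left out, or with the replicate number as a block (adjusted p = 0.0504). Adam10, a sheddase of many other surface proteins, was not called (0.03). Mlkl, Nsmaf, Tank, Tradd, Ripk1, Casp8, Cflar, Traf1, Traf2, Tnfaip3 and Adam10 were named after their values were seen.

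**Figure D4:**
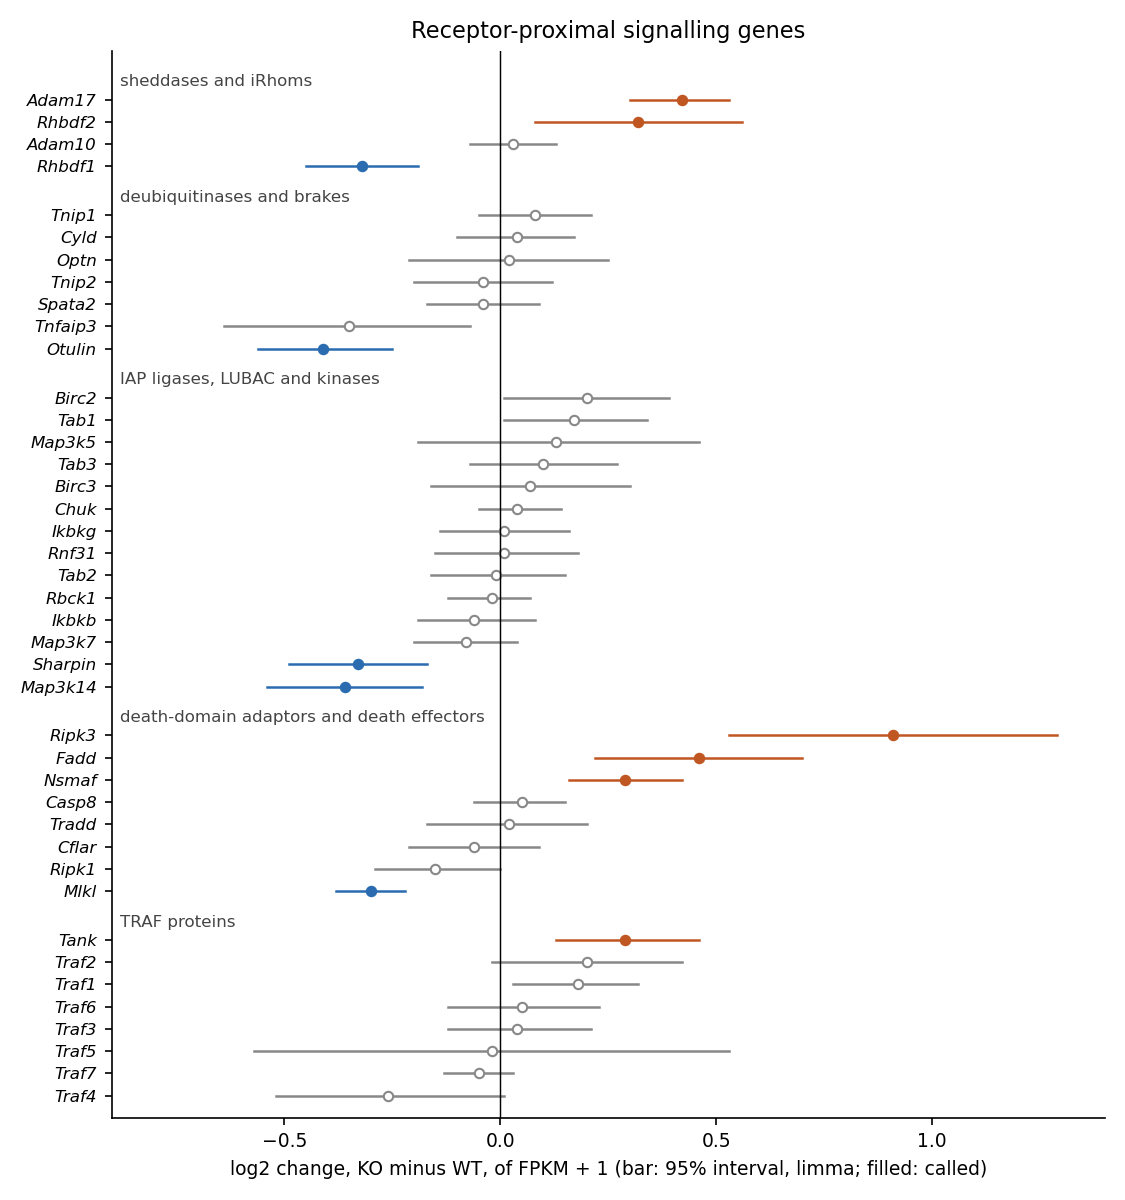
Log2 change (KO minus WT, of FPKM + 1) of the 41 tested signalling genes in 5 groups by role, with 95% intervals from limma; orange and blue points are called as higher and lower, and open grey points are not called. Most points lie near 0, while Ripk3, Fadd and Adam17 lie to the right and Otulin, Map3k14 and Sharpin to the left.

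Of the 11 calls among members, 6, those of Tnfrsf12a, Tnfrsf1a, Tnfrsf22, Tnfrsf23, Tnfsf9 and Tnfsf10, remained whichever library was left out. The other 5, those of Cd40, Ltbr, Tnfrsf14, Tnfrsf1b and Tnfsf12, were each lost in at least 1 such fit. The share of all called genes that kept their call in every such fit is not given here. Without the filter Cd40, Tnfrsf14 and Tnfrsf1b were not called either (limma, adjusted p of 0.0773, 0.0577 and 0.0535). Cd40 was also lost with quantile normalisation (0.0508) or no variance trend (0.0536). Every one of the 12 tested members kept the sign of its change under all alternatives run. For the 11 whose groups did not overlap, leaving out 1 library or another pseudocount could not have reversed the sign.

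**Figure D5:**
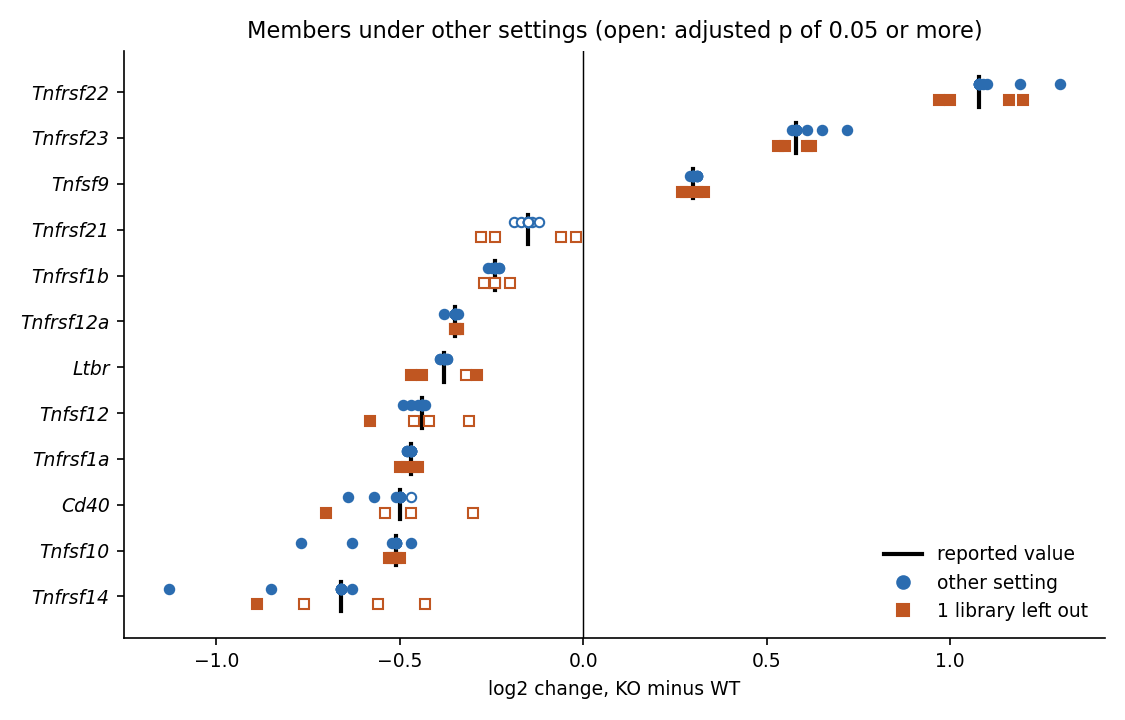
Log2 change (KO minus WT) of each tested member as reported (black bar), under other settings (blue circles) and with 1 library left out (orange squares); open symbols have an adjusted p of 0.05 or more. No member crosses 0, and Tnfrsf14 and Cd40 show the widest ranges, from -1.13 to -0.43 and from -0.70 to -0.30.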

How the data were processed

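RNA of 4 MC38 libraries was sequenced, 2 labelled WT and 2 labelled Arid5a KO. The authors deposited 1 table of FPKM per library, and these values were used as deposited. The submitters' processing notes list Cufflinks 2.2.1, TopHat2 2.0.13 with Bowtie2 2.2.3, SAMtools 0.1.19, and mm10 as the build. The annotation, the strand setting and the treatment of reads that match several places are not given in the sources used here. FPKM are not counts, so no count model was fitted. Depth was estimated from the steps of low FPKM values of genes with 1 annotated transcript (144 of 245 lay within 3% of a common line), and fragments per gene are estimates from it, given as a range over the annotated transcripts.

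Genes averaging 1 FPKM or more across all 4 libraries were fitted as log2(FPKM + 1) with limma 3.58.1 in R 4.3.3 (empirical Bayes with a trend), KO minus WT, with Benjamini-Hochberg adjustment over 10827 genes. The fit was tested on data simulated from its own fitted means and variances, with changes placed only in genes well above the filter. That test does not bear on members with few fragments. Every member was named, and of the signalling genes the 4 called ones with the largest rise and the 4 with the largest fall, beside others named as such. The members and lists were chosen with earlier results of these data known. Alternatives were other pseudocounts, filters, scalings and variance settings, the replicate number as a block and leaving out each library. Gene positions come from GENCODE M21 on GRCm38, in which all 35 members matched 1 gene, and promoters from RefSeq.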

Additional observations from a re-analysis of the deposited data

How the results depend on the processing

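No change of sign occurred in any tested member or in Arid5a under any alternative run. Except in Tnfrsf21 the groups did not overlap, so leaving out 1 library or another pseudocount could not have reversed the sign. The count of members called was 11 at both other pseudocounts, with median-centring, upper-quartile scaling, robust moderation and the replicate block. It was 10 with quantile normalisation or no variance trend. Over these settings the share of all genes called ran from 43.2% (replicate block) to 50.4% (robust moderation). At a filter of 5 FPKM fewer genes were tested, and 7 of 7 members were called, 5 of them lower. Among signalling genes 7 of 32 were called, against 51.9% of all genes tested at that filter. Tnfrsf22 reached that filter only through the KO-labelled libraries, at 6.49 and 7.83 FPKM against 3.05 and 2.63 FPKM, so its call there was favoured by the filter. Without a filter 13 of the 26 members above 0 in any library were called, 5 as higher and 8 as lower. In that fit 31% of 16191 genes were called. The lower calls included that of Tnfrsf17, on about 1 fragment in each WT-labelled library. With each library left out in turn, members called ranged from 7 to 8, those lower from 4 to 5, all genes from 3216 to 3974 and signalling genes from 6 to 12. The lone library of a group is then assumed to vary like the others. Arid5a, Cd40, Tnfrsf14, Tnfrsf21, Tnfrsf23 and Tnfsf10 have no value at 5 FPKM, being below it. The replicate numbers share only a number. The correlation of the replicate 1 minus replicate 2 differences between groups was 0.14 across genes, and with the replicate block 11 members, 4673 genes and 10 signalling genes were called. Below about 1 FPKM a value rests on a few estimated fragments, which limits the 14 members under the filter. Depending on the transcript, some tested members may also rest on few. In the KO-labelled libraries the estimates were 5 to 71 and 6 to 85 for Cd40, against 489 and 621 for Ltbr.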

Other observations

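Genes that are no members were also counted within 500 kb of other tested members. Around Tnfsf9, 18 such genes were tested, of which 5 rose and 3 fell in the KO-labelled libraries, with a median log2 change of 0.09. Around Tnfrsf12a, 5 of 15 were higher and 1 lower (median 0.13, opposite in sign to Tnfrsf12a itself). Around Cd40, 7 of 18 were higher and 2 lower (median 0.11, also opposite in sign to Cd40). Over all genes tested the shares were 24.4% higher and 23.3% lower. These windows were chosen after the values were seen and are given as descriptions.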
